A study of Homo sapiens with 6 samples.

Results

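The HOX cluster genes are the 39 human homeobox genes whose symbols read HOXA, HOXB, HOXC or HOXD followed by a number. They were chosen by symbol alone from the 62754 genes of the count table, with no use of their measured values, and each symbol matched 1 Ensembl identifier. There were 11 genes in the HOXA cluster on chromosome 7, 10 in HOXB on chromosome 17, 9 in HOXC on chromosome 12 and 9 in HOXD on chromosome 2. Poly(A) RNA had been sequenced in 6 libraries of HEK293 cells, 3 control and 3 with FAM60A knocked out. HEK293 is an adherent human line of embryonic kidney origin whose labels also name HEK293T. FAM60A, now named SINHCAF, encodes a protein of the Sin3 complex, which removes acetyl groups from histones. The knockout libraries came from a puromycin-selected pool, not a single clone, that carried Cas9 with guide RNAs against 3 regions of the gene, and what the control cells had received is not given in the sources used here. Nothing in the labels says that the 3 libraries of a group came from separate cultures, so p-values measure the spread between these libraries, which may be technical.

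HOX genes encode homeodomain transcription factors that give cells of the embryo their position along the head-to-tail axis. Within a cluster the genes lie in the order of their paralog numbers, and the low-numbered genes at the 3' end are used earlier and nearer the head than the high-numbered genes at the 5' end. The clusters are classic targets of the Polycomb repressors and the trithorax (KMT2/MLL) activators, and many HOX proteins bind DNA with PBX and MEIS partners. In the embryonic kidney the Hox11 paralogs take part in the induction of the ureteric bud.

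Total counts lay between 88361827 and 93346824 per library. Reads on SINHCAF numbered 11028, 10165 and 12792 in control 1, 2 and 3 and 5684, 5793 and 5449 in knockout 1, 2 and 3, and no control library overlapped the knockout libraries. Its log2 fold change came to -0.85 (standard error 0.11, adjusted p = 0.00863, edgeR quasi-likelihood test), and a two-sided exact permutation test of its CPM gave p = 0.1, which is as small as groups of 3 can give. Control 3 stood apart within its group: of 21031 genes averaging 10 counts or more, 1711 and 1666 genes differed at least 4-fold between it and control 1 and 2, against 26 between control 1 and 2 and 31 to 48 among the knockout libraries. Counts of calls for the HOX genes and for each list are therefore given with and without it, but not every single value is. All 8 markers of HEK293 cells had more than 3 counts in some library, with summed levels of 906 to 1300 CPM in control and 749 to 815 CPM in knockout libraries. Of these 8 markers 2 were called lower (25.0%, against 16.6% of all genes tested). The log2 fold change was below 0 for all 8, with a median of -0.64. Of 8 markers of MDA-MB-231 cells, a line also used in the study, 7 passed 3 counts (139 to 186 CPM in control, 163 to 174 CPM in knockout, 1 called higher, 14.3% of those tested). Of 7 fibroblast and stroma markers, 5 did (24.0 to 29.4 and 25.5 to 25.8 CPM, 2 called higher and 1 lower), and COL1A2 and THY1 were at or under 3 counts. The 3 stroma markers called were a larger share of the 5 tested than the 16.6% of all genes. Of these 3, 2 changed at least 2-fold. Without control 3, 0 HEK293 markers were called higher and 6 lower (75.0% of those tested), and 3 MDA-MB-231 markers higher and 3 lower (85.7%). Of the stroma markers 3 were then higher and 1 lower (80.0%), against 65.6% of all genes tested in that fit. The part of these markers in the HOX results was not tested.

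In the comparison of FAM60A-knockout with control cells, 5 of the 37 HOX genes tested passed an adjusted p of 0.05. HOXA9 and HOXA11 were lower in the knockout cells, and HOXB3, HOXC11 and HOXD12 were higher. That is 13.5% of the HOX genes tested, against 16.6% of all 20992 genes tested (7.96% higher and 8.67% lower), so the HOX genes were not called more often than the table as a whole. With a log2 fold change of at least 1 in either direction as well, 2 HOX genes remained, HOXA9 and HOXC11, against 7.06% of all genes. The median log2 fold change of the HOX genes was -0.20, against -0.01 over all genes, with 25 genes below 0 and 12 above. HOXB1 and HOXC12 were too low to be tested. The knockout and control libraries did not overlap for 16 HOX genes. Of these, 10 were lower in every knockout library, 27.0% against 20.1% of all genes tested, and 6 were higher, 16.2% against 21.5%.

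**Figure D1:**
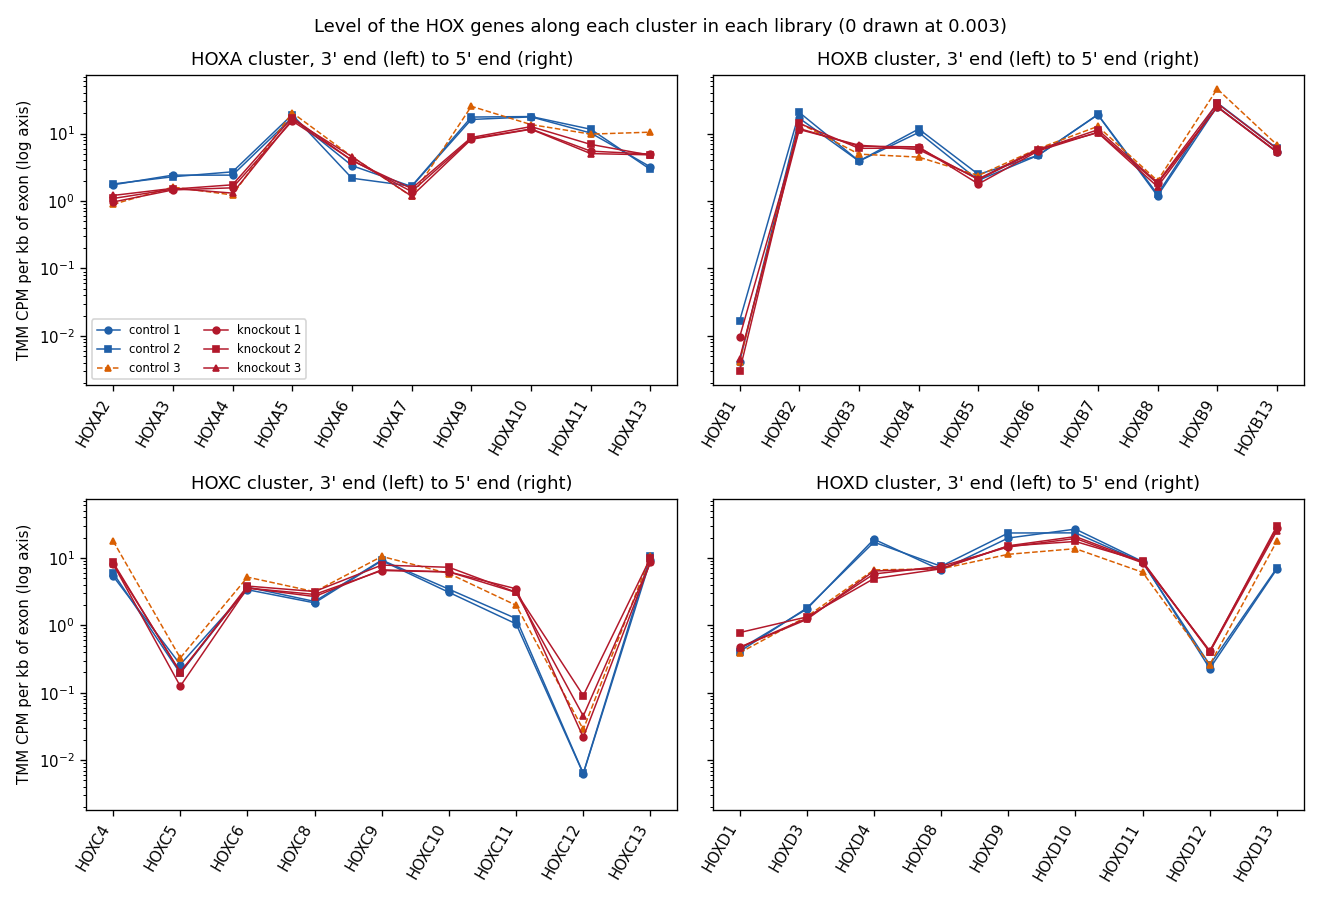
Level of 38 of the 39 HOX genes in each library as TMM-normalized CPM (reads scaled to a common library size) per kb of exon, on a log axis, with the genes of each cluster ordered from the 3' end to the 5' end; blue, control 1 and 2; orange dashed, control 3; red, knockout; a value of 0 is drawn at 0.003. HOXD13 and HOXD4 change places between control 1 and 2 and the knockout libraries. HOXD4 is at 17.1 to 18.9 in control 1 and 2 and 4.93 to 6.38 in knockout, while HOXD13 is at 6.84 to 7.12 and 25.3 to 29.8. In control 3 they have changed places too, with HOXD4 at 6.64 and HOXD13 at 17.8, and neither gene passed the test.

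All 4 clusters were transcribed. In control 1 and 2 the leading genes were HOXD10 (26.7 and 23.5 CPM per kb), HOXB9 (25.2 and 28.6) and HOXD9 (19.7 and 23.4), and the ranges of HOXD10 and HOXB9 overlapped. Summed over a cluster, HOXA transcripts came to 222, 232 and 267 CPM in control 1, 2 and 3 and 160, 172 and 159 CPM in knockout 1, 2 and 3. The HOXA sum was thus lower in every knockout library than in any control library. HOXB sums were 221, 245 and 265 CPM in control and 209, 223 and 210 CPM in knockout, and the groups overlapped. For HOXC they were 79.8, 88.3 and 138 CPM against 99.2, 109 and 97.8 CPM, and for HOXD 185, 185 and 143 CPM against 193, 194 and 191 CPM. The HOXC groups overlapped, while the HOXD sum was higher in every knockout library than in any control library. Control 3 had the highest sum of all 6 libraries for HOXA, HOXB and HOXC and the lowest for HOXD. These are sums of read counts in bulk RNA, in which fewer expressing cells and less RNA per cell cannot be told apart.

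The HOXA cluster held both genes called lower. Gene coordinates are those of RefSeq on GRCh38.p14. HOXA9 (ENSG00000078399, chr7:27162438-27165537), a factor of blood stem cells that is active in many leukaemias, had 4786, 5129 and 7432 reads in control 1, 2 and 3 and 2149, 2330 and 2204 reads in knockout 1, 2 and 3. Every knockout library was below every control library, and control 3 was the highest. Normalized expression was 59.8 ± 14.9 CPM in control and 25.7 ± 0.812 CPM in knockout cells (SD, n = 3 each), a log2 fold change of -1.22 (standard error 0.18, adjusted p = 0.0112, edgeR), and of -1.03 without control 3 (adjusted p = 1.39e-10). HOXA11 (ENSG00000005073, chr7:27181157-27185232), a paralog with roles in the kidney, forearm and uterus, had 2647, 2975 and 2536 reads in control and 1235, 1619 and 1190 in knockout. The groups did not overlap and control 3 lay with the other controls. The log2 fold change came to -0.86 (standard error 0.15, adjusted p = 0.0181, edgeR), and -0.94 without control 3 (adjusted p = 6.77e-08). Antisense RNA HOXA11-AS covers 27.2% of the HOXA11 exons, and for HOXA9 15.9% of exon bases are shared with other genes on the same strand and 13.9% on the opposite strand. The strand setting of the counting is not given in the sources used here, so such reads cannot be told apart. HOXA11-AS itself had 734, 768 and 1669 reads in control and 581, 622 and 703 in knockout (log2 fold change -0.58, adjusted p = 0.275; -0.12 without control 3, adjusted p = 0.308), its highest value in control 3.

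The windows before the starts of HOXA9 and HOXA11 are shown because these were the genes called lower. Both are 250 bases long, from the RefSeq promoter table on GRCh38.p14, 5' to 3' on the gene's strand and ending at the base before the start that the table gives. HOXA9 is at chr7:27165538-27165787 and HOXA11 at chr7:27185233-27185482, both on the minus strand. Capitals mark matches on either strand to 4 motifs: TATAAA (a core promoter element), CCAAT (a site of the factor NF-Y), TGATTNAT (a PBX-HOX site) and TGACAG (a MEIS site).
HOXA9: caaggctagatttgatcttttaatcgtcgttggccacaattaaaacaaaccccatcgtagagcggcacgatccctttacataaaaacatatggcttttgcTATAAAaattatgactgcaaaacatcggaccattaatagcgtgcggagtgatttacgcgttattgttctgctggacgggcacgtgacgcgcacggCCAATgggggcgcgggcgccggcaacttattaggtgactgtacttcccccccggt
HOXA11: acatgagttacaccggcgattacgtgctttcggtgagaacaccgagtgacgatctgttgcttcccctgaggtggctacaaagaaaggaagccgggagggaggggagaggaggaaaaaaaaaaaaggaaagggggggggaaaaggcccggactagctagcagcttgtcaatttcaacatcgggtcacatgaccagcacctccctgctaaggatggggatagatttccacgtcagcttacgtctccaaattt
HOXA9 held TATAAA beginning 150 bases before the start and CCAAT beginning 55 bases before it, and the HOXA11 window held none of the 4 motifs. The HOXA9 window had 20 CpG dinucleotides and that of HOXA11 had 11, against a median of 11 over all 35116 promoter windows of this length.

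Other genes at the 5' end of HOXA moved in different ways. HOXA10, which patterns the uterus and lumbar region, had 6363, 6381 and 4857 reads in control and 3662, 4132 and 3785 in knockout. Its groups did not overlap, but its log2 fold change of -0.45 (standard error 0.13) did not pass (adjusted p = 0.0637, edgeR); without control 3 it was -0.60 (adjusted p = 4.34e-07). HOXA13, a gene of digits and the genital tract, had 1583, 1431 and 5158 reads in control and 2122, 2127 and 2168 in knockout. Control 3 held more than 3 times the level of control 1 and 2 (ratio 3.42), and the direction of HOXA13 turned on that library: the log2 fold change was -0.19 (adjusted p = 0.812) with it and 0.63 (adjusted p = 7.02e-07) without it.

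The 3' part of HOXA was low per kb and mostly lower in knockout libraries than in control 1 and 2. HOXA5, a gene of the lung and cervical skeleton, was the exception in level, at 17.3 and 19.1 CPM per kb in control 1 and 2, 20.4 in control 3 and 15.4 to 17.3 in knockout. Its reads numbered 2898, 3151 and 3390 in control and 2233, 2606 and 2466 in knockout, and after normalization its groups did not overlap (log2 fold change -0.22, standard error 0.11, adjusted p = 0.202). HOXA2, which patterns the second pharyngeal arch, had 394, 401 and 201 reads in control and 190, 224 and 250 in knockout. HOXA3, a gene of the thymus and parathyroid, had 1013, 948 and 672 against 528, 566 and 585, without overlap (log2 fold change -0.49, standard error 0.19, adjusted p = 0.127). HOXA4 had 406, 450 and 205 reads in control and 228, 264 and 200 in knockout. In HOXA2, HOXA3 and HOXA4 control 3 was thus nearer to the knockout libraries than to control 1 and 2. Without control 3 these 3 were called lower, with log2 fold changes of -0.72, -0.68 and -0.77 (adjusted p = 3.06e-05, 1.35e-06 and 1.98e-05, edgeR). HOXA4 shares 31.3% of its exon bases with other genes on its strand and 16.5% with genes on the opposite strand. For HOXA3 these shares are 9.3% and 17.3%. HOXA6 had 418, 269 and 565 reads in control and 438, 448 and 515 in knockout, and HOXA7 had 384, 384 and 272 against 281, 323 and 251; neither was called, and HOXA-AS3 lies antisense to both, over 39.3% of the HOXA6 and 62.5% of the HOXA7 exon bases when all opposite-strand genes are counted.

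In the HOXB cluster, HOXB3 was called higher. HOXB3 (ENSG00000120093, chr17:48548870-48590241), a hindbrain and blood progenitor gene, had 2814, 2796 and 3557 reads in control 1, 2 and 3 and 4071, 3937 and 4410 in knockout 1, 2 and 3. All knockout libraries were above all controls, with control 3 between. Expression was 31.6 ± 4.50 CPM in control and 47.7 ± 2.59 CPM in knockout cells (SD, n = 3 each), a log2 fold change of 0.59 (standard error 0.13, adjusted p = 0.0279, edgeR), and 0.69 without control 3 (adjusted p = 1.43e-07). Its neighbours HOXB2 and HOXB4 had values on the other side of 0. HOXB2, also of the hindbrain, had 4039, 4869 and 3391 reads in control and 2468, 3066 and 2501 in knockout, without overlap (log2 fold change -0.46, standard error 0.16, adjusted p = 0.102). HOXB4, a gene known for expanding blood stem cells, had 2032, 2243 and 867 reads against 1072, 1075 and 1024, with control 3 the lowest of all (log2 fold change -0.54, adjusted p = 0.307). Without control 3 both were called lower, at -0.61 (adjusted p = 8.52e-06) and -0.89 (adjusted p = 6.46e-09). HOXB7 had 2808, 2808 and 1885 reads in control and 1338, 1519 and 1389 in knockout. Its groups did not overlap and it lay just past the threshold (log2 fold change -0.67, standard error 0.18, adjusted p = 0.0508); without control 3 it was -0.86 (adjusted p = 4.08e-09).

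HOXB9 had the highest level per kb of the HOXB cluster, at 25.2, 28.6 and 46.0 CPM per kb in control and 24.8, 28.1 and 24.9 in knockout. Its reads were 6329, 7109 and 11488 in control and 5392, 6380 and 5697 in knockout (log2 fold change -0.36, standard error 0.23, adjusted p = 0.314). Control 3 was the library that differed: without it the log2 fold change was -0.08 (adjusted p = 0.384). HOXB5 had 367, 443 and 429 reads against 281, 340 and 350, and HOXB6 had 1206, 1188 and 1507 against 1213, 1302 and 1363. HOXB8 had 277, 291 and 465 reads in control and 369, 397 and 346 in knockout, and HOXB13, the prostate gene at the far 5' end, had 1577, 1761 and 2004 against 1358, 1584 and 1439. None of these 4 was called and their groups overlapped. HOXB1, active in the early hindbrain, had 0 to 4 reads in any library.

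In the HOXC cluster the genes called or separated between groups were HOXC9, HOXC10 and HOXC11. HOXC11 (ENSG00000123388, chr12:53973126-53977643) was called higher. It had 334, 396 and 625 reads in control 1, 2 and 3 and 957, 885 and 885 in knockout 1, 2 and 3. No library overlapped, and control 3 again lay between the other controls and the knockout cells. Expression was 4.68 ± 1.59 CPM in control and 10.5 ± 0.756 CPM in knockout cells (SD, n = 3 each), a log2 fold change of 1.17 (standard error 0.26, adjusted p = 0.0316, edgeR), and 1.44 without control 3 (adjusted p = 2.27e-10). Its neighbour HOXC10, a lumbar and hindlimb gene, had 710, 781 and 1343 reads against 1237, 1509 and 1296, without overlap after normalization (log2 fold change 0.67, standard error 0.26, adjusted p = 0.132); without control 3 the value was 0.98 (adjusted p = 1.69e-08). HOXC9 was on the other side of 0, with 1470, 1483 and 1694 reads in control and 911, 1143 and 979 in knockout (log2 fold change -0.46, standard error 0.14, adjusted p = 0.0674).

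HOXC13, a hair and nail gene, had the highest level per kb of the cluster in control 1 and 2 (9.28 and 10.8) and 8.58 to 10.0 in knockout. Its reads were 2127, 2450 and 2408 in control and 1709, 2078 and 1786 in knockout, and its groups overlapped (log2 fold change -0.17, standard error 0.12, adjusted p = 0.357). HOXC4, at the 3' end, behaved as HOXA13 did. It had 1438, 1593 and 4762 reads in control and 1895, 2080 and 1993 in knockout, with control 3 at 3.14 times the mean of control 1 and 2, and its log2 fold change was -0.23 (adjusted p = 0.757) with control 3 and 0.52 (adjusted p = 1.39e-05) without it. HOXC6 had 1133, 1222 and 1730 reads against 1040, 1158 and 1090, and HOXC8 had 505, 524 and 736 against 584, 672 and 570. HOXC5 was low, at 41, 30 and 51 reads in control and 17, 28 and 29 in knockout, and shares 67.3% of its exon bases with other genes on its strand. HOXC12 had 2, 2 and 9 reads in control and 6, 26 and 13 in knockout. It was too low to enter the fit of all 6 libraries, so no fold is given.

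The HOXD cluster held the highest and the lowest log2 fold change of all HOX genes tested, and neither passed the test. HOXD13 (ENSG00000128714, chr2:176087487-176095944), the 5'-most gene, needed for digits, had 1606, 1653 and 4157 reads in control 1, 2 and 3 and 5606, 6312 and 5403 in knockout 1, 2 and 3. All knockout libraries were above all controls, with control 3 nearer to them than to control 1 and 2. Its log2 fold change of 1.38 was the largest of any HOX gene in size, but its standard error was 0.39 and it did not pass (adjusted p = 0.0569, edgeR). Without control 3 it was 1.95 (standard error 0.09, adjusted p = 3.11e-14). HOXD4 (ENSG00000170166, chr2:176151550-176153226), near the 3' end and active in the hindbrain and neck, had 2087, 1867 and 729 reads in control and 552, 491 and 640 in knockout. Here all knockout libraries were below all controls, and control 3 was again nearer to the knockout libraries. The log2 fold change came to -1.32 (standard error 0.39, adjusted p = 0.0648), and -1.69 without control 3 (adjusted p = 3.82e-12). Per kb of exon, the ratio of HOXD13 to HOXD4 was 0.362 and 0.416 in control 1 and 2, 2.68 in control 3 and 4.78, 6.04 and 3.97 in the knockout libraries. HOXD12 (ENSG00000170178, chr2:176099795-176102489), between HOXD11 and HOXD13, was low but steady within groups, at 57, 64 and 65 reads in control and 91, 92 and 91 in knockout. It was called higher (log2 fold change 0.71, standard error 0.18, adjusted p = 0.0415; 0.72 without control 3, adjusted p = 0.00215).

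The windows before HOXD13, HOXD12 and HOXD4 are shown because these genes of 1 cluster had values on both sides of 0. They are 250 bases each on the plus strand of GRCh38.p14, drawn from the same RefSeq table and marked in the same way, at chr2:176092471-176092720, chr2:176099545-176099794 and chr2:176151300-176151549. The HOXD13 window lies inside the gene span given above: the promoter table places the start of HOXD13 within that span and not at its 5' edge, and the distances for HOXD13 are counted from that inner start.
HOXD13: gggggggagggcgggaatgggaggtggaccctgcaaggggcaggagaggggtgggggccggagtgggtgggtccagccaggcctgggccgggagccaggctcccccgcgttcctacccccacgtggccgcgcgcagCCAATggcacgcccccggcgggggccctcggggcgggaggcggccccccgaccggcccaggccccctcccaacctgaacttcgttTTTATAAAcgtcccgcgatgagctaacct
HOXD12: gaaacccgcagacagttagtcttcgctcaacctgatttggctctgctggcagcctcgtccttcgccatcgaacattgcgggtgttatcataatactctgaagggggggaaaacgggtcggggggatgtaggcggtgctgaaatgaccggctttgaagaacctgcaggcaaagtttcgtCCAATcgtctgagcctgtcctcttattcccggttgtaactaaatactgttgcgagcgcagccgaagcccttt
HOXD4: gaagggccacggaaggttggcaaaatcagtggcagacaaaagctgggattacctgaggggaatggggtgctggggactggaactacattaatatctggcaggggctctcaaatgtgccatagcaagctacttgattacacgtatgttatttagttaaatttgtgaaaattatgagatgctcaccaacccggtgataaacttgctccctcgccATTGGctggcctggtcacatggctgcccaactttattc
HOXD13 held overlapping matches to TATAAA on both strands, beginning 29 and 27 bases before the start, and CCAAT beginning 114 bases before it. HOXD12 held CCAAT beginning 72 bases before the start, and HOXD4 the reverse complement of CCAAT beginning 38 bases before it. The windows held 21, 16 and 4 CpG dinucleotides. The table held 27 windows for 20 of the 39 HOX genes, 7 of them for HOXA3, and 1 shared by HOXC4 and HOXC5 was counted for each. CCAAT or its complement was in 18 of the 27 windows (66.7%), against 32.0% of all windows of the table. TATAAA was in 5 (18.5% against 10.7%), TGATTNAT in 2 (7.41% against 2.48%) and TGACAG in 2 (7.41%, against 4577 of the 35116 windows of the table). The windows hold 19.0 CpG dinucleotides at the median. These are matches of letters, not measured binding.

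The remaining HOXD genes lay between HOXD12 and HOXD4, or 3' of HOXD4. HOXD9, HOXD10 and HOXD11, which pattern the limb and the posterior trunk, had their lowest normalized level in control 3. HOXD10, with the highest level per kb of the cluster in control 1 and 2, had 6456, 5610 and 3296 reads in control and 4060, 3829 and 4539 in knockout (log2 fold change -0.15, standard error 0.24, adjusted p = 0.698); without control 3 it was called lower, at -0.42 (adjusted p = 0.000187). HOXD9 had 3582, 4209 and 2035 reads against 2282, 2467 and 2500 (log2 fold change -0.28, adjusted p = 0.473), and it too was called lower without control 3, at -0.57 (adjusted p = 3.92e-06). HOXD11 had 1814, 1742 and 1249 reads against 1504, 1646 and 1623. HOXD8 differed little between libraries, at 1682, 1894 and 1745 reads in control and 1661, 1587 and 1611 in knockout (log2 fold change 0.03, standard error 0.11, adjusted p = 0.892). HOXD3 had 624, 640 and 483 reads in control and 397, 433 and 397 in knockout, without overlap (log2 fold change -0.35, standard error 0.17, adjusted p = 0.201). HOXD1 had 81, 74 and 71 reads against 75, 129 and 78, without overlap after normalization (log2 fold change 0.47, standard error 0.26, adjusted p = 0.248), and opposite-strand genes, HAGLR among them, share 60.1% of its exon bases.

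**Figure D2:**
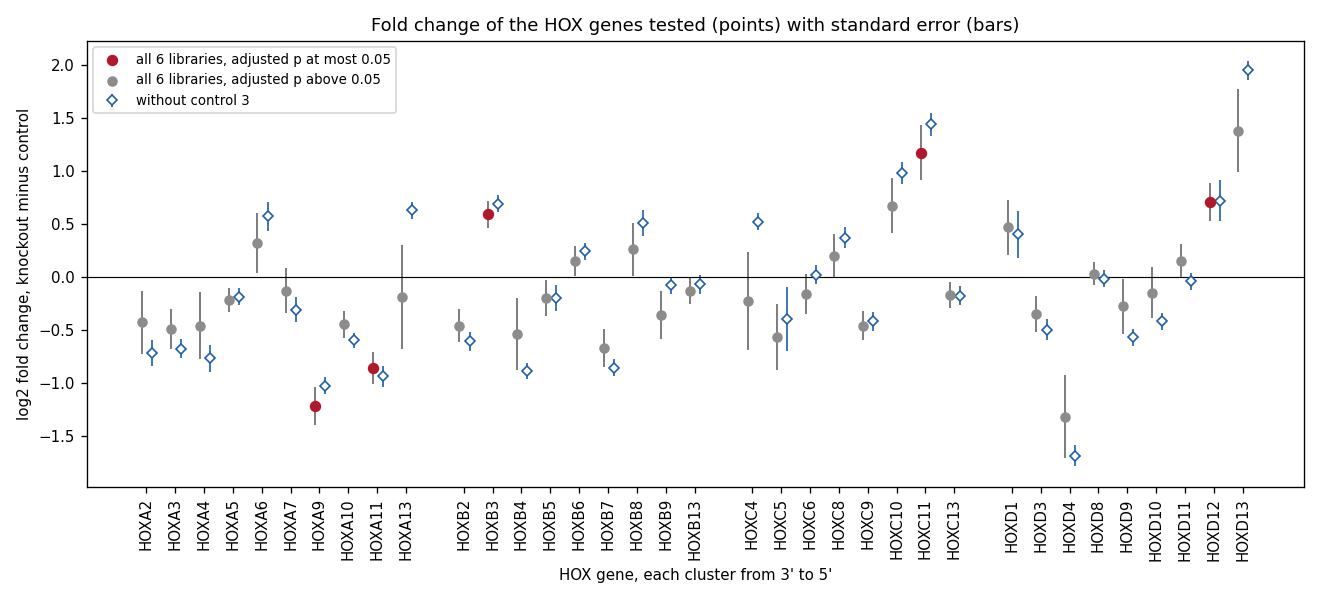
Log2 fold change (knockout minus control) of 36 of the 37 HOX genes tested, with standard errors as bars; filled points use all 6 libraries (red, adjusted p of at most 0.05; grey, above it) and open diamonds leave out control 3. HOXA9 (-1.22), HOXA11 (-0.86), HOXB3 (0.59), HOXC11 (1.17) and HOXD12 (0.71) are red, while HOXD13 (1.38) and HOXD4 (-1.32) have larger or similar values with wider bars that shrink without control 3.

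Control 3 entered nearly every HOX result. On the log2 CPM scale it was nearer to the knockout mean than to the mean of control 1 and 2 for 24 of 37 HOX genes (64.9%), against 58.9% of all genes tested. It was the highest of the 6 libraries for 12 HOX genes (32.4% against 26.4%) and the lowest for 8 (21.6% against 25.1%). The HOX genes therefore followed the table as a whole in this. By cluster it was the highest library for 4 HOXA, 4 HOXB and 4 HOXC genes and for no HOXD gene, and the lowest for 4 of the 9 HOXD genes and no HOXC gene. In the fit without control 3, 29 of 38 HOX genes were called, 12 higher and 17 lower (76.3%), against 65.6% of all 21686 genes tested in that fit (32.4% higher and 33.2% lower). All 11 HOXA genes were among them, 9 lower and 2 higher, the latter being HOXA6 and HOXA13. HOXD13, HOXC11 and HOXC10 had the largest positive and HOXD4, HOXA9 and HOXA11 the largest negative log2 fold changes of the genes tested in both fits. Other genes called in this fit included HOXA5 (-0.19), HOXA6 (0.57), HOXA7 (-0.31), HOXB6 (0.24), HOXB8 (0.51), HOXC8 (0.37), HOXC9 (-0.42) and HOXD3 (-0.50), with adjusted p from 0.000174 to 0.0451. HOXC12, counted among the 12 higher and in the 76.3%, had 2 and 2 reads in control 1 and 2 and 6, 26 and 13 in knockout. It passed the filter on low counts in this fit only through its knockout reads, so its call is not taken as a result. The 9 genes not called in this fit were HOXB5, HOXB9, HOXB13, HOXC5, HOXC6, HOXC13, HOXD1, HOXD8 and HOXD11. The 5 genes called with all libraries were called in this fit too, in the same direction.

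Each of the 5 calls was lost in at least 3 of the fits that left out a single library other than control 3. For HOXA9 the adjusted p rose to 0.0827, 0.0652 and 0.0818 (edgeR) without knockout 1, 2 or 3. For HOXA11 it was 0.0555 and 0.0707 without control 1 or 2 and 0.109 and 0.0952 without knockout 1 or 3. For HOXB3, HOXC11 and HOXD12 it passed 0.05 when any single library other than control 3 was left out, reaching 0.131, 0.143 and 0.172. No log2 fold change of these 5 genes changed sign in any of these fits. DESeq2 called 10 HOX genes, these 5 together with HOXA10, HOXB7, HOXC9, HOXD4 and HOXD13. Its calls also rose over the whole table, to 5159 genes in place of 3491. Of the 40122 genes in that fit, 16535 had no adjusted p. Without TMM scaling, which shifts the median log2 fold change of all genes by -0.11, 7 HOX genes were called, 2 higher and 5 lower in place of 3 and 2, and HOXD12 was not among them (adjusted p = 0.0577). Without the filter on low counts HOXD12 was not called either (adjusted p = 0.119, edgeR), while HOXD13 was (adjusted p = 0.0467). HOXD13 was also called by limma-voom (adjusted p = 0.0333). Over all genes the split without TMM was 1235 higher and 2668 lower in place of 1671 and 1820.

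**Figure D3:**
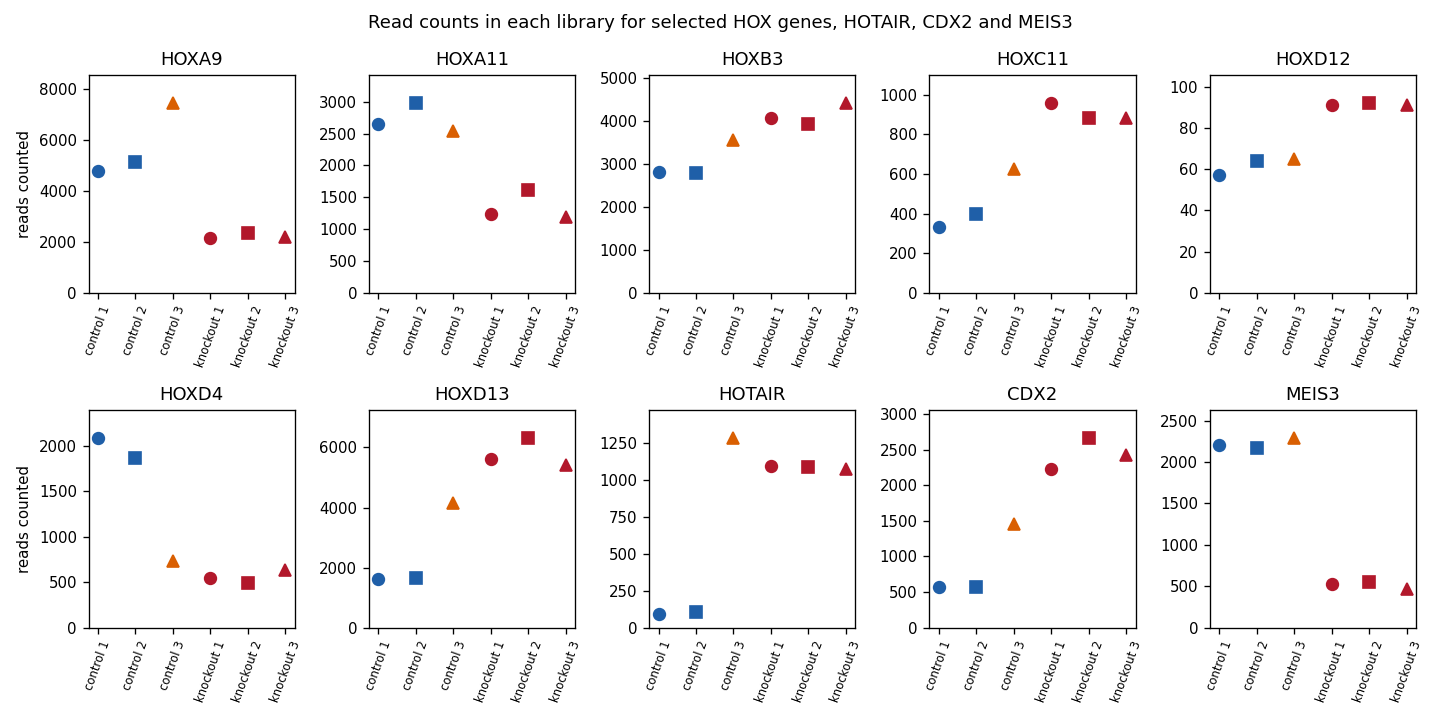
Reads counted in each of the 6 libraries for the 5 called HOX genes, HOXD4, HOXD13, the HOXC lncRNA HOTAIR, CDX2 and MEIS3, each on a linear axis from 0; blue, control 1 and 2; orange, control 3; red, knockout. In HOXA9, HOXA11 and MEIS3 control 3 sits with or beyond the other controls, whereas HOTAIR has 90 and 105 reads in control 1 and 2, 1284 in control 3 and 1075 to 1093 in knockout.

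Compared across clusters by paralog number, 1 of 11 genes tested in groups 1 to 4 was called (9.09%), none of 11 in groups 5 to 8 and 4 of 15 in groups 9 to 13 (26.7%), of which 2 were higher and 2 lower, against 16.6% of all genes tested. Without control 3 the order differed: 10 of 11 genes were called in groups 1 to 4 (90.9%), 7 of 11 in groups 5 to 8 (63.6%) and 12 of 16 in groups 9 to 13 (75.0%). The last count includes HOXC12, and the share of all genes tested in that fit was 65.6%. These counts are small, and the difference between the ranges of paralog number was not tested. In groups 5 to 8, 1 gene had an unadjusted p under 0.05 by edgeR, and DESeq2 called 1 and limma-voom 0. In group 11, HOXA11 fell and HOXC11 rose, while HOXD11 had a log2 fold change of 0.15 (adjusted p = 0.57). In group 9, HOXA9 fell while HOXB9, HOXC9 and HOXD9 had values of -0.36, -0.46 and -0.28 that did not pass. In group 13, the values of HOXA13, HOXB13, HOXC13 and HOXD13 were -0.19, -0.13, -0.17 and 1.38, none of them called. Group 4 had 4 values below 0: HOXA4 -0.46, HOXB4 -0.54, HOXC4 -0.23 and HOXD4 -1.32, none called, and that of HOXC4 turned to 0.52 without control 3. The differences between paralogs were not tested.

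Among 18 antisense and other long RNAs of the clusters, none was called with all libraries (0.0%, against 16.6% of all genes tested). Of these RNAs 4 had an unadjusted p under 0.05 by edgeR, and DESeq2 called 1 and limma-voom 0. Without control 3, 12 were called (66.7%, against 65.6% of all genes tested in that fit). Those described here were picked with their values in view. HOTAIR, a long non-coding RNA of the HOXC cluster transcribed opposite to its HOX genes, had 90, 105 and 1284 reads in control and 1093, 1086 and 1075 in knockout. Control 3 was the highest library, so the log2 fold change of 1.29 had a standard error of 1.01 (adjusted p = 0.404), against 3.60 without control 3 (adjusted p = 3.82e-16). Per kb of exon the ratio of HOTAIR to HOXC11 was 0.283 and 0.278 in control 1 and 2, 2.15 in control 3 and 1.20, 1.29 and 1.27 in knockout. HOXB-AS3 had a like pattern, with 333, 261 and 1052 reads against 907, 920 and 1054 (log2 fold change 0.96, adjusted p = 0.243; 1.82 without control 3, adjusted p = 1.39e-11). HOTAIRM1, in the 3' part of HOXA, had 1296, 1416 and 903 reads against 823, 837 and 822 (log2 fold change -0.39, adjusted p = 0.209; -0.59 without control 3, adjusted p = 4.6e-06), on the same side of 0 as HOXA2, HOXA3 and HOXA4. HOTTIP, at the HOXA13 end, had 80, 72 and 178 reads against 111, 107 and 120, with control 3 the highest as in HOXA13 (log2 fold change 0.19, adjusted p = 0.752; 0.69 without control 3, adjusted p = 0.0015).

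Of 18 genes that flank the clusters, 16 were tested and none was called with all libraries (0.0%, against 16.6% of all genes tested). Of these genes 2 had an unadjusted p under 0.05 by edgeR, and DESeq2 and limma-voom called 0. Without control 3, 10 were called (62.5%, against 65.6% of all genes). Their median log2 fold change was -0.10. SKAP2, on the 3' side of HOXA, had 7154, 6708 and 4176 reads in control and 3396, 3871 and 3531 in knockout (log2 fold change -0.58, adjusted p = 0.0997; -0.82 without control 3, adjusted p = 4.7e-09). HIBADH, beyond HOXA13, had 4672, 4898 and 5500 against 5636, 5720 and 5094 (log2 fold change 0.28, adjusted p = 0.12; 0.32 without control 3, adjusted p = 0.00139). Beside HOXD13, LNPK had 4958, 4404 and 3525 reads against 4576, 4111 and 4333 (log2 fold change 0.17, adjusted p = 0.438) and EVX2 had 42, 57 and 32 against 24, 26 and 37 (-0.44, adjusted p = 0.353). Neither of these neighbours of HOXD13 was called with all libraries; without control 3 LNPK was at 0.02 (adjusted p = 0.863) and EVX2 at -0.65 (adjusted p = 0.0377).

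Among the partners and regulators of HOX proteins, several were called. Of 13 TALE homeodomain cofactors, the family of PBX and MEIS proteins that bind DNA with HOX proteins, and their regulators, 3 were lower and none higher (23.1% called, against 16.6% of all genes), with a median log2 fold change of -0.23. The fit without control 3 called 2 higher and 10 lower (92.3%, against 65.6% of all genes). MEIS3 had 2201, 2165 and 2290 reads in control and 526, 552 and 465 in knockout. Control 3 was with the other controls, and the log2 fold change came to -1.95 (standard error 0.13, adjusted p = 0.00197, edgeR). PBX4 had 263, 286 and 130 reads against 53, 56 and 61 (log2 fold change -1.84, adjusted p = 0.0179), and PBX2 had 16541, 15487 and 11422 against 8148, 8298 and 8673 (-0.63, adjusted p = 0.0356). MEIS1, picked with its values in view, was not called (log2 fold change 0.32, adjusted p = 0.15), but was called higher without control 3 (0.38, adjusted p = 0.000752). Both PBX4 and PBX2 had control 3 between the other controls and the knockout libraries.

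**Figure D4:**
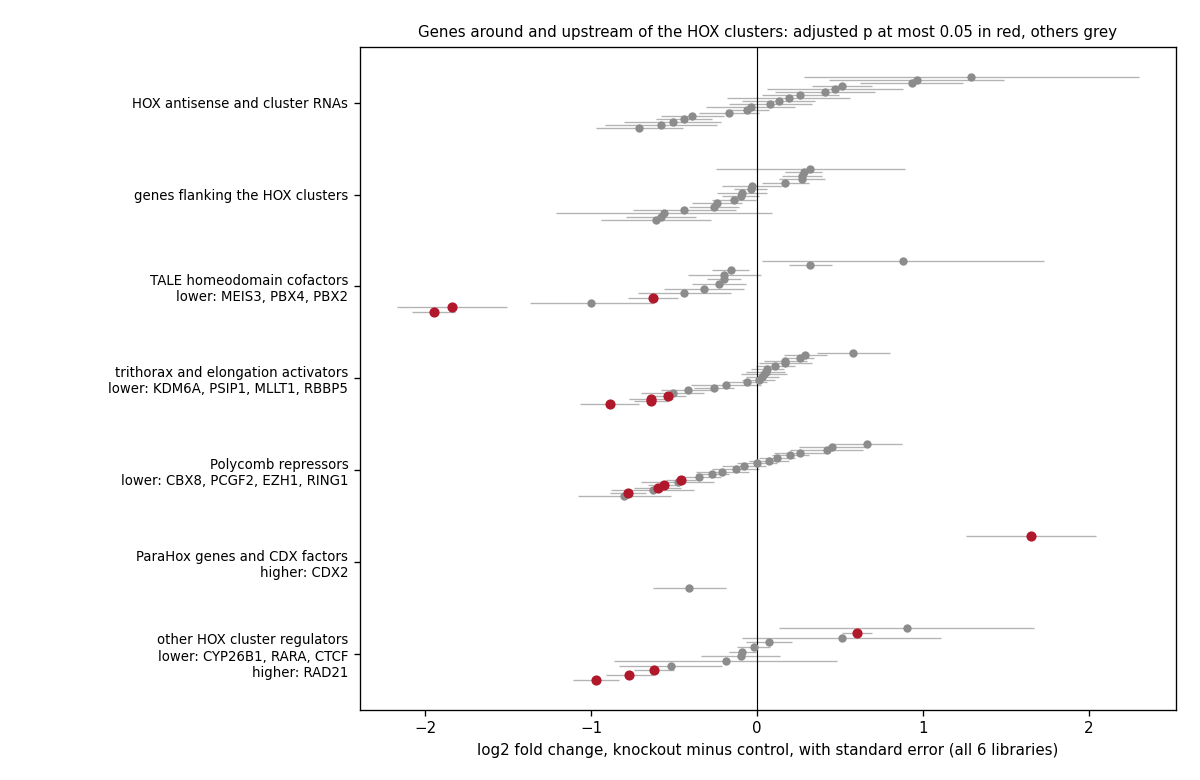
Log2 fold change (knockout minus control, all 6 libraries) with standard error for the tested genes shown of 7 lists of RNAs, neighbours, partners and regulators of the HOX clusters; red, adjusted p of at most 0.05, with the genes named at the left; grey, above it. MEIS3 (-1.95) and PBX4 (-1.84) lie farthest to the left and CDX2 (1.65) farthest to the right among the red points.

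With all libraries, the chromatin regulators that act on the clusters were called lower where they were called, though not all of their values were below 0. Of 20 trithorax and elongation activators, 4 were lower and none higher (20.0% called, against 16.6% of all genes, 8.67% lower and 7.96% higher). Their median log2 fold change was 0.02, with 9 genes below 0 and 11 above. The fit without control 3 called 12 of the 20, 4 higher and 8 lower, a smaller share than the 65.6% of all genes. PSIP1, which tethers MLL complexes to chromatin, had 25871, 22122 and 24044 reads in control and 13810, 14377 and 13236 in knockout (log2 fold change -0.64, adjusted p = 0.0115). The histone demethylase KDM6A had 8091, 7254 and 5034 against 3221, 3256 and 3366 (-0.89, adjusted p = 0.0233). RBBP5, a core subunit of KMT2 complexes, and MLLT1, a reader in elongation complexes, had log2 fold changes of -0.54 and -0.64 (adjusted p = 0.0237 and 0.0261, edgeR). Of 20 Polycomb genes, 4 were lower and none higher (20.0% called, against 16.6% of all genes). Their median log2 fold change was -0.17, with 12 genes below 0 and 7 above. The fit without control 3 called 3 higher and 12 lower (75.0%, against 65.6% of all genes). CBX8, a chromodomain subunit, had 2447, 2590 and 2383 reads against 1242, 1413 and 1224 (log2 fold change -0.78, adjusted p = 0.0104). EZH1, a methyltransferase, had 3859, 4029 and 4495 against 2399, 2522 and 2606 (-0.56, adjusted p = 0.0164). RING1 and PCGF2 had values of -0.46 and -0.60 (adjusted p = 0.0239 and 0.0359), and opposite-strand genes share 61.5% of the PCGF2 exon bases.

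CDX2, a ParaHox factor that binds HOX clusters in the posterior embryo, rose. It had 566, 571 and 1460 reads in control 1, 2 and 3 and 2221, 2661 and 2424 in knockout 1, 2 and 3. Knockout libraries were above all controls, with control 3 between, as in HOXD13. The log2 fold change came to 1.65 (standard error 0.39, adjusted p = 0.038, edgeR), and 2.22 without control 3 (adjusted p = 1.18e-14). Of the 6 ParaHox and CDX genes only CDX2 and PDX1 were tested, and PDX1 was not called (log2 fold change -0.41, adjusted p = 0.239; -0.59 without control 3, adjusted p = 0.00091). Of 13 other regulators of HOX clusters, 4 were lower and 1 higher (38.5% called, against 16.6% of all genes, 8.67% lower and 7.96% higher). The fit without control 3 called 4 higher and 5 lower (69.2%, against 65.6% of all genes). CYP26B1, which degrades retinoic acid, had 842, 930 and 852 reads against 406, 403 and 389 (log2 fold change -0.97, adjusted p = 0.011). The retinoic acid receptor RARA had 2246, 2307 and 2560 against 1068, 1436 and 1255 (-0.77, adjusted p = 0.0176). CTCF, which sets the boundaries between active and silent parts of HOX clusters, had 9692, 9312 and 7493 against 4826, 5506 and 5121 (-0.62, adjusted p = 0.0221), while the cohesin subunit RAD21 had 22090, 20237 and 22858 against 28998, 30673 and 28704 (0.60, adjusted p = 0.0119). MEIS3 was called in all 12 alternatives, whereas each of the other 15 called genes named here from these lists lost its call in at least 1, with a highest adjusted p of 0.0815 to 0.165 (edgeR). None of these 7 lists was tested as a set, and their part in the HOX values was not tested.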

How the data were processed

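Poly(A) RNA-seq libraries of 3 control and 3 FAM60A-knockout HEK293 samples were grouped by their labels. The authors deposited whole-number read counts per Ensembl gene, without normalization. The submitters' processing notes name STAR 2.7.10b, featureCounts 2.0.0 and hg38, the paper's methods name Trimmomatic and Salmon on hg38 with strand-specific libraries, and the labels name hg19; the annotation release and strand setting are not given in the sources used here. Every column belonged to a sample, and 60878 of 62754 genes matched a symbol.

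Counts were analysed in edgeR 4.0.16 (R 4.3.3) with TMM normalization, filterByExpr at a minimum count of 10, the quasi-likelihood F-test on all 6 libraries and Benjamini-Hochberg adjustment over all 20992 genes tested, after a test on simulated data. A call is an adjusted p of at most 0.05. CPM are TMM-scaled read counts at a common library size; levels per kb divide them by the union exon length of GENCODE models, from which exon overlaps were also taken. Gene coordinates and promoter windows came from RefSeq on GRCh38.p14. A gene with at most 3 counts in every library was taken as at the floor, which covers counting error only. Alternatives were DESeq2 1.42.0, limma-voom (limma 3.58.1), no TMM, no filter, at least 10 counts in every library, the replicate number as a block, and each library left out in turn.

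The HOX genes were chosen by symbol, and the other lists and the rule for named genes (all HOX genes, SINHCAF, and from each other list at most 4 called genes with the lowest adjusted p) were fixed with earlier results of these data known. Of the listed genes 4 are not reported here by name or drawn. Tables and figures were made in Python 3.11.15 with pandas 2.3.3, scipy 1.17.1 and matplotlib 3.10.9.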

Additional observations from a re-analysis of the deposited data

How the results depend on the processing

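Each result was recomputed under 12 alternatives. The 5 HOX genes called (3 higher, 2 lower) became 10 by DESeq2, with 6 of them lower, and 5 lower genes were called without TMM. Over the whole table DESeq2 called 5159 genes and the fit without TMM 3903, in place of 3491. With 1 library left out, HOX calls ran from 0 (without knockout 1 or 3, where 10 and 8 HOX genes had an unadjusted p under 0.05 by edgeR) to 29 (without control 3), those higher from 0 to 12 and those lower from 0 to 17. Calls over all genes ran from 167 to 14221 in place of 3491. The log2 fold change of SINHCAF was -0.96 without TMM and ran from -0.92 to -0.78 with 1 library left out, missing the threshold without any 1 of the knockout libraries.

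Libraries of the 2 groups share replicate numbers but did not deviate together: the correlations of their deviations from the group means were 0.01, 0.03 and -0.04 for numbers 1, 2 and 3, and not every library correlated best with its own number. With the replicate block, 407 genes were called, none of them a HOX gene (0 higher, 0 lower; 12 HOX genes had an unadjusted p under 0.05 by edgeR), and SINHCAF was at -0.84 (adjusted p = 0.0551).

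Signs changed for 6 HOX genes that were not called with all libraries. HOXA13 was 0.07 by limma-voom, 0.09 with the replicate block and -0.50 to 0.63 with 1 library left out. HOXC4 was 0.01 with the block and -0.54 to 0.52 with 1 library left out. HOXD8 was -0.08 without TMM. With 1 library left out, HOXC6 ran from -0.30 to 0.02, HOXD8 from -0.04 to 0.08, HOXD10 from -0.42 to 0.01 and HOXD11 from -0.04 to 0.21. Of all 444 recomputed HOX values, 371 kept their direction and their side of the threshold, 29 lost a call, 34 gained one (2 of them, HOXA13 and HOXC4 without control 3, with a changed sign) and 10 changed sign with no call. The causes were not tested. Depth limits HOXB1, HOXC12, HOXC5, HOXD1 and HOXD12, which had at most 129 reads in any library.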
